A study of Rattus norvegicus with 6 samples.

Results

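Cytosolic ribosomal protein genes were examined in RNA sequencing of cultured neonatal rat ventricular myocytes, contractile cells taken from hearts of newborn rats. The members were all rows of the deposited expression table whose symbol is Rpl or Rps followed by a digit, or is Rplp0, Rplp1, Rplp2 or Rpsa, without the kinases whose names begin with Rps6k. This gave 77 of 13843 rows, each with a symbol of its own: 44 of the large subunit, 2 of its stalk, 30 of the small subunit, and Rps19bp1, a protein that binds Rps19 and matches the symbol rule without being part of the ribosome. Rplp2, Rpl8, Rps6 and other ribosomal protein genes with no such row were not analysed here. The 6 libraries fall into 3 groups of 2. The PE+TSA+shJIP1 cultures received phenylephrine (PE), TSA and a short hairpin RNA against JIP1, the PE+TSA cultures PE, TSA and a control hairpin, and the PE cultures PE and the control hairpin, each for 3 days. All groups therefore carry PE, which drives growth of cultured heart muscle cells, and a hairpin. TSA is the common short form of trichostatin A, a histone deacetylase inhibitor, though the labels give only the letters, and JIP1 is a scaffold of the JNK kinase pathway. The labels name the JIP1 condition a knockout in 1 field and a hairpin in another. Nothing in the labels says whether the 2 libraries of a group were grown apart, so p-values measure only the spread between these libraries, which may be technical.

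A cytosolic ribosome has a small subunit, which reads the mRNA, and a large subunit, which joins the amino acids, and each of their proteins is present about once per ribosome. The stalk of the large subunit recruits the elongation factors. Most ribosomal protein mRNAs start within a run of pyrimidines, the TOP motif, through which the mTORC1 kinase pathway controls their translation in growing cells, cardiomyocytes under hypertrophic stimulation included. Mammalian genomes also hold many processed copies of these genes, so reads from the parent gene and from its copies can be hard to tell apart.

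The start sites are shown first because they are what most of these genes share in sequence. RefSeq promoter windows on the build GRCr8, from 250 bases before to 50 bases after the annotated start, were matched by symbol for 61 of the 77 members, with 2 entries for Rps27a. Below, 40 bases before and 20 bases after the start are printed on the gene's strand, and capitals mark an unbroken run of at least 5 pyrimidines that includes the start base. The first 3 are members that passed the test between groups described further on.
Rpl34, chr2:221962264-221962323 (- strand): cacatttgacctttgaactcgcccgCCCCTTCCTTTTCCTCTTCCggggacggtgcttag
Rps12, chr1:23500035-23500094 (+ strand): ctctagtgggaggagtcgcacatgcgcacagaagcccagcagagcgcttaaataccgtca
Rps19bp1, chr7:113693004-113693063 (- strand): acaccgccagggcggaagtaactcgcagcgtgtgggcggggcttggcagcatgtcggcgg
The next 4 are among the most abundant members.
Rpl23, chr10:83272165-83272224 (- strand): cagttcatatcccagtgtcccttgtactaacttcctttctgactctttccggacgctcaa
Rpl37a, chr9:81748051-81748110 (+ strand): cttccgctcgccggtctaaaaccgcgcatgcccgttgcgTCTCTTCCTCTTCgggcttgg
Rpl35, chr3:43165902-43165961 (- strand): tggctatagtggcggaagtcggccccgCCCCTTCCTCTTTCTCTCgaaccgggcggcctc
Rps24, chr16:96477-96536 (+ strand): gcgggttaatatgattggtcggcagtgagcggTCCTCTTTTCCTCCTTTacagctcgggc
The next 3 were listed at 0 in at least 1 library.
Rpl31, chr9:49143071-49143130 (+ strand): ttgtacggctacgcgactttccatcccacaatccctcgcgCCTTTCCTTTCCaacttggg
Rps14, chr18:56498220-56498279 (+ strand): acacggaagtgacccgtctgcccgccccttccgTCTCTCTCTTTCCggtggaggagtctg
Rpl35a, chr11:81235002-81235061 (- strand): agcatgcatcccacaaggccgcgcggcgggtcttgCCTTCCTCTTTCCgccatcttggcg
The last pair is a ribosomal protein and its paralog.
Rps27, chr2:177964587-177964646 (- strand): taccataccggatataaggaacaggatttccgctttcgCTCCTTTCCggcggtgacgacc
Rps27l, chr8:76443618-76443677 (+ strand): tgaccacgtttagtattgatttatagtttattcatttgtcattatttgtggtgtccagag
Rpl34 had a run of 20 pyrimidines over the start, Rpl35 one of 18 and Rps24 one of 17. Rpl31, Rps14 and Rpl35a, each with a 0, had runs of 12, 13 and 13. Rpl23, Rps12, Rps19bp1 and Rps27l had a purine at the annotated start and thus no run, and so did Rpl3l, whose window is not printed.

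Without Rps19bp1, 39 of 61 ribosomal protein promoters (63.9%) had a pyrimidine run of at least 5 bases over the annotated start, against 11 of 65 mitochondrial ribosomal protein promoters (16.9%) and 4003 of 33469 promoters in all (12%). A C at the start followed by at least 4 pyrimidines was found in 24 of 61 (39.3%), against 2.63% of all promoters. The letters CTTTCC, searched on the gene's strand from 30 bases before to 20 after the start, were found in 18 of 61 (29.5%) and in 2.18% of all promoters; they can lie inside the run. The letters TTCCGG, a core of ETS factor sites searched on both strands over the whole window, were found in 50.8% of ribosomal protein promoters and 15.0% of all, and in 50.8% of the mitochondrial ones. Among members with a mean of at least 100 FPKM 15 of 24 promoters had the run, and among members below 5 FPKM in every library 9 of 12 did. FPKM is the number of fragments relative to transcript length and to the fragments mapped in the library. The annotated start may differ from the start used in these cells.

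**Figure D1:**
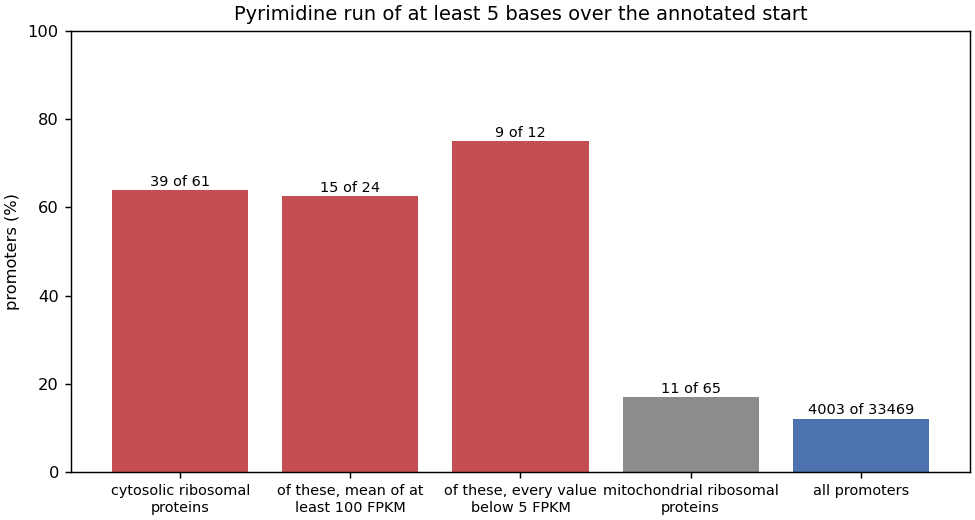
Share of RefSeq promoters (percent, vertical axis) with a pyrimidine run of at least 5 bases over the annotated start, for cytosolic ribosomal protein genes, 2 subsets of them by level, mitochondrial ribosomal protein genes and all promoters. The bars for the cytosolic genes stand at 62.5% to 75%, and those for the mitochondrial genes and all promoters at 16.9% and 12%.

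Mapk8ip1, the gene of JIP1, was at 1.80 and 3.65 FPKM in PE+TSA+shJIP1, 14.6 and 17.9 in PE+TSA, with 3.77 and 4.39 in PE, so that it was lowest with the hairpin and highest with TSA and the control hairpin. Depth is not known, since the table gives no totals. In PE replicate 2 the lowest values were high: the 1st percentile of values above 0 was 0.353 FPKM there and 0.0371 to 0.0736 in the other 5 libraries. The most frequent ratio of its low values to those of PE replicate 1 was 5.21, 10.4 or 20.8 in 3 ever wider windows of low values, and the narrowest window held 31 features with at most 2 at 1 ratio, so the size of the difference in depth was not settled. PE replicate 2 listed 26.5% of all features at 0, and the other 5 libraries 10.2% to 13.3%. Of the 10 cardiomyocyte markers 9 had a row and none of these was at 0 in any library, with a summed level of 9112 and 4698 FPKM in PE+TSA+shJIP1, 10211 and 5162 in PE+TSA, with 21298 and 17510 in PE. The 8 fibroblast markers summed to 564 and 675 FPKM in PE+TSA+shJIP1, to 523 and 728 in PE+TSA and to 1048 and 1702 in PE, with Col1a2 at 0 in 5 libraries. The 7 smooth muscle and pericyte markers summed to 512 and 490 in PE+TSA+shJIP1, to 394 and 251 in PE+TSA and to 1637 and 1317 in PE. Endothelial markers (6 of 6 with a row) summed to 8.08 to 37.8, macrophage markers (4 of 6) to 4.43 to 13.1 and erythroid markers (2 of 4) to 0.0772 to 4.97 FPKM. Their part in the values below was not tested, and in these bulk samples fewer cells of a type and less RNA per cell cannot be told apart.

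The ribosomal protein listings spread over a wide range of levels. By mean over the 6 libraries, the 4 highest listings had 1074 FPKM or more, 27 others at least 100, 17 between 10 and 100, 16 between 1 and 10, and 13 below 1. The order of the 77 levels was much alike in all libraries: Spearman's rho across genes was 0.933 to 0.983 for the 15 pairs of libraries, where genes are not independent replicates. The 64 listings with a mean of at least 1 FPKM were the ones tested. Their median range over the 6 libraries was 1.06 on the log2(FPKM + 1) scale, against 1.17 for all 10359 features tested. Of the 64, 31 stayed within a range of 1 (48.4%, against 39.2% of all features tested).

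**Figure D2:**
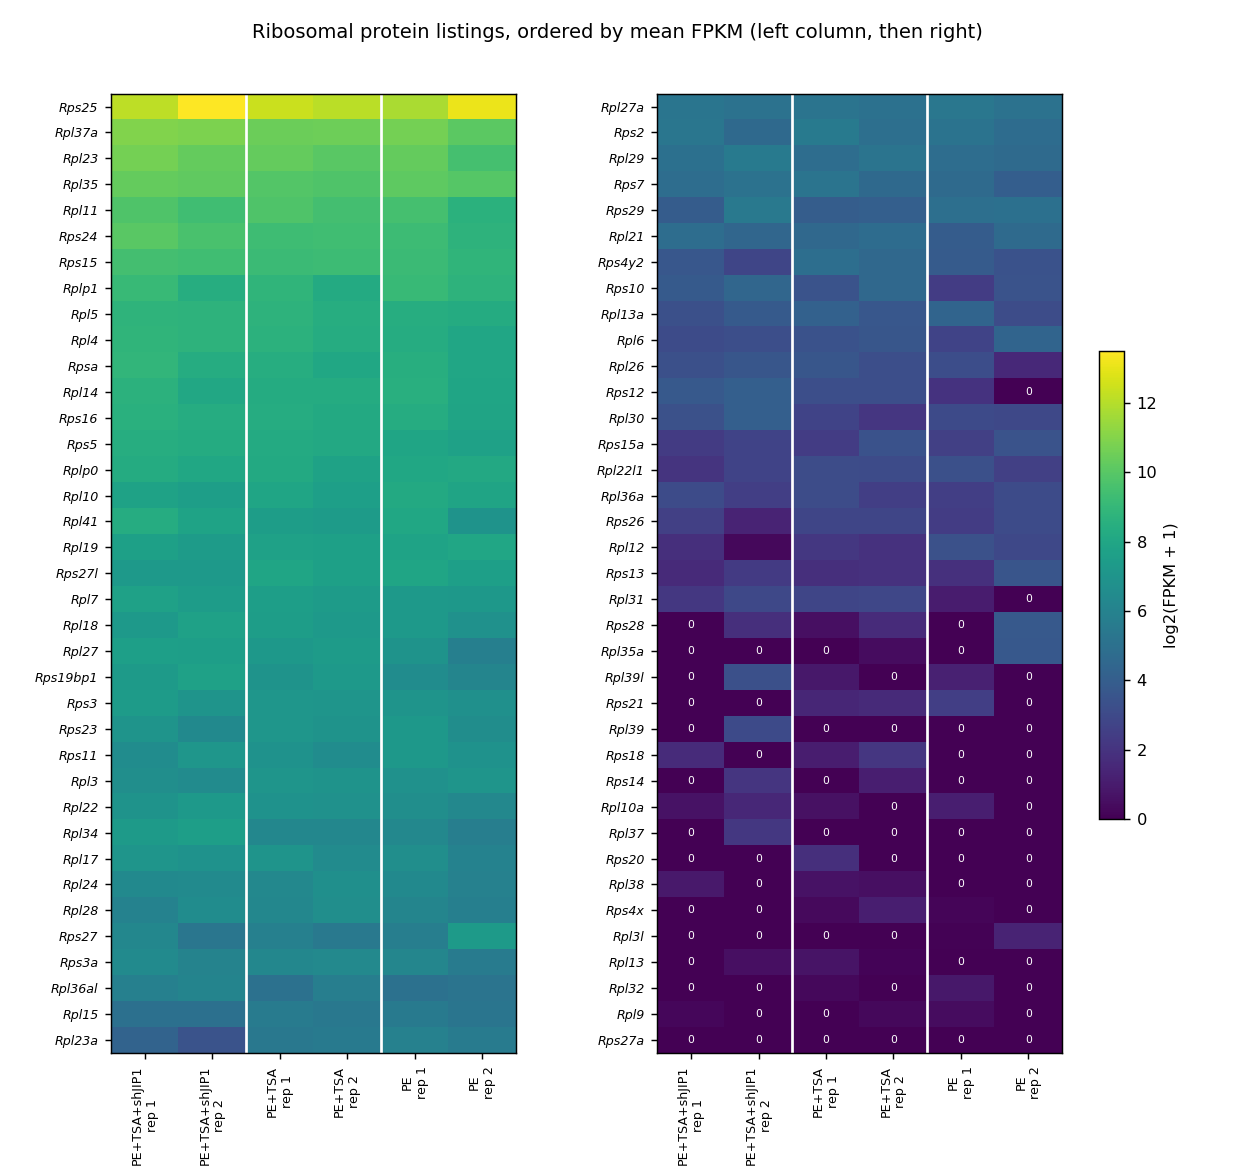
Level of 74 of the 77 listings (rows, highest mean first, left column and then right) in the 6 libraries (columns, grouped as PE+TSA+shJIP1, PE+TSA and PE), as log2(FPKM + 1) in colour, with a white 0 where the table lists 0. Colour changes down the rows far more than along them, and most zeros stand in the lower part of the right column.

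Among the highest listings were Rps25, Rpl37a, Rpl23, Rpl35, Rpl11, Rps24 and Rps15. Rps25, a small subunit protein used in initiation at internal ribosome entry sites, was listed at 4583 and 11573 FPKM in PE+TSA+shJIP1, 5491 and 4472 in PE+TSA, with 3504 and 8727 in PE. The libraries of PE+TSA+shJIP1 and those of PE lay far apart, with replicate 2 higher in both, and the groups overlapped. Rpl37a, of the large subunit, was at 1940 and 1852 FPKM in PE+TSA+shJIP1, 1394 and 1460 in PE+TSA, with 1611 and 1096 in PE. Rpl23, which also binds the p53 regulator Mdm2, was at 1657 and 1290 in PE+TSA+shJIP1, 1279 and 1046 in PE+TSA, with 1289 and 721 in PE. PE replicate 2 was the lowest library for both genes. Rpl35, beside the exit tunnel, was at 1269 and 1195 in PE+TSA+shJIP1, 955 and 877 in PE+TSA, with 1153 and 994 in PE. Rpl11, Rps24 and Rps15 had means of 602 to 705 FPKM, with values of 393 to 1067. In every group Rps25 lay above all the others, whereas the ranges of Rpl37a, Rpl23 and Rpl35 over the libraries overlapped, as did those of Rpl11, Rps24 and Rps15. The stalk proteins Rplp0 and Rplp1 had means of 273 and 433 FPKM.

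In 23 listings every library was above 100 FPKM. These had ranges of 0.48 to 1.72 on the log2 scale, and 18 of the 23 stayed within a range of 1. No share of other features at this level is given here. The narrowest was Rpl5, which with Rpl11 and 5S rRNA forms a particle that binds Mdm2: 432 and 424 FPKM in PE+TSA+shJIP1, 430 and 339 in PE+TSA, with 339 and 310 in PE. Rpl27a, with a mean of 35.1 FPKM, had a range of 0.30, the narrowest among all 64 listings tested.

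A second set was listed at or near 0. A 0 in at least 1 library was found for 21 of 77 listings (27.3%), against 29.1% of all features and 3 of 68 mitochondrial ribosomal protein listings (4.41%). The 2 families had similar median levels, 35.1 and 29.5 FPKM. The lowest 8 by mean were Rps27a (a ribosomal protein made as a fusion with ubiquitin), Rpl9, Rpl32, Rpl13, Rpl3l, Rps4x, Rpl38 and Rps20. Rps27a was listed at 0 in all 6 libraries, and none of the other 7 exceeded 2.52 FPKM in any library. Rps14, Rps18, Rps21, Rpl37 and Rpl10a, among others, also stayed below 5 FPKM throughout. All but Rpl3l are proteins of ordinary ribosomes. Gapdh and Ppia, other genes used by every cell, were listed at 1.06 to 3.94 and 0 to 2.18 FPKM.

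The zeros were spread over the libraries: 14 and 11 of the 77 listings in PE+TSA+shJIP1, 7 and 10 in PE+TSA, with 10 and 18 in PE. PE replicate 2 had the most, and Rps12 and Rpl31 were at 0 in that library alone. Of the 21 listings with a 0, 6 were also above 5 FPKM somewhere. Rpl35a was at 0 and 0 FPKM in PE+TSA+shJIP1, 0 and 0.340 in PE+TSA, with 0 and 12.1 in PE. Rps28 was at 0 and 2.58 FPKM in PE+TSA+shJIP1, 0.462 and 2.17 in PE+TSA, with 0 and 12.9 in PE. For these genes the highest value was thus in PE replicate 2. Rpl39, a short protein of the exit tunnel, was at 7.16 FPKM in PE+TSA+shJIP1 replicate 2 and at 0 in the other 5 libraries. Rpl39l, its paralog, known in mouse from the testis, was at 0 and 8.90 FPKM in PE+TSA+shJIP1, 0.832 and 0 in PE+TSA, with 1.39 and 0 in PE. Rpl37 had the same pattern as Rpl39, at 3.60 FPKM in PE+TSA+shJIP1 replicate 2 alone. In all these cases 1 library decided the value of its group.

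RefSeq names many copies of these genes in GRCr8. Of the 77 symbols 75 were current, and Rpl36al and Rpl39l matched as older names. For 71 of the 75 at least 1 pseudogene or like-named gene carries the parent's symbol with a ps or l number, 1002 in all, with a median of 14 per gene. The median was 16 for the 15 listings below 5 FPKM in every library and 11 for the 31 with a mean of at least 100 FPKM. Rps2 had the most, 36 (mean 32.8 FPKM), Rps27a 29, Rpl23a 26, Rps12 13, Rps25 11 and Rpl34 9. Across the 75 genes the number of copies and the mean level had a Spearman's rho of -0.221, a description only. How the authors counted reads shared with copies is not given in the sources used here, and the values of genes with copies are uncertain to that extent; its part in the zeros was not tested.

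Summed over the 77 listings, the level was 19372 and 24418 FPKM in PE+TSA+shJIP1, 17988 and 15828 in PE+TSA, with 16120 and 18255 in PE. Rps25 alone made up 21.7% to 47.8% of the sum. Without it the sums were 14789 and 12846 FPKM in PE+TSA+shJIP1, 12497 and 11356 in PE+TSA, with 12615 and 9527 in PE. The PE+TSA+shJIP1 libraries thus lay above the other 4, narrowly for replicate 2, while PE+TSA and PE overlapped. Summed over all features, the level was 1074800 and 518592 FPKM in PE+TSA+shJIP1. It was 426501 and 681760 in PE+TSA, with 462883 and 401714 in PE. In PE+TSA+shJIP1 replicate 1 the feature Evc alone had 211779 FPKM. The order of the libraries above holds for sums not scaled to these levels. An exact two-sided permutation test of 2 libraries against 2 cannot go below p = 0.333. Within PE, 46 of the 64 listings tested were higher in replicate 1 and 16 in replicate 2, with a median difference of 0.34 (log2), against 0.16 over all features. The replicates of PE+TSA+shJIP1 and PE+TSA differed by a median of 0.08 and 0.09.

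**Figure D3:**
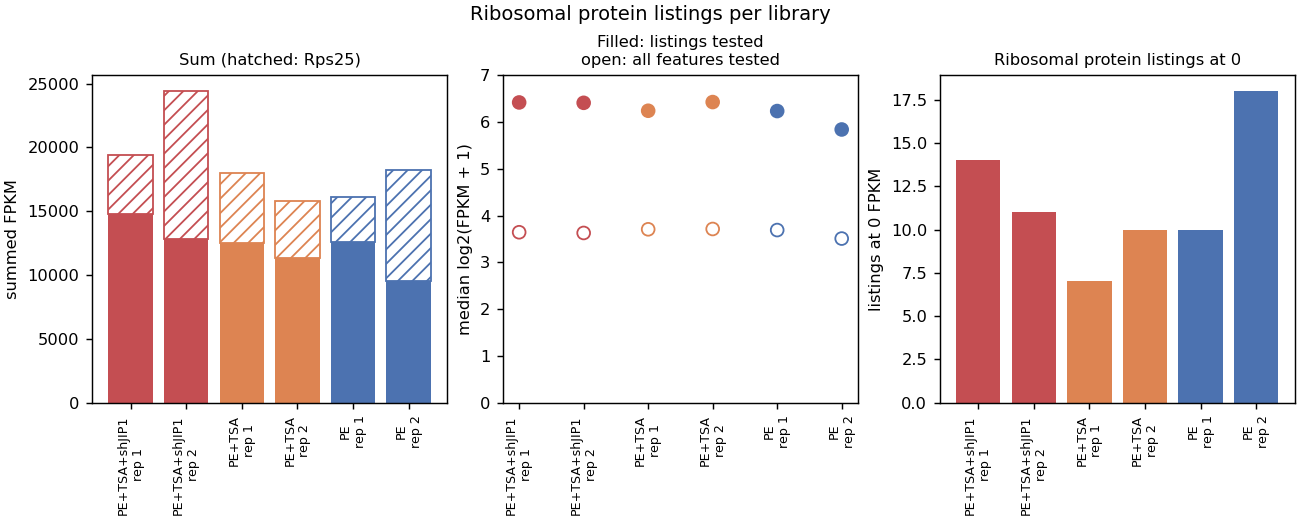
Left, summed FPKM of the 77 listings in each library, with Rps25 hatched; middle, median log2(FPKM + 1) of the 64 listings tested (filled) and of all features tested (open); right, number of listings at 0. The filled points lie at 6.24 or above except in PE replicate 2 (5.84), which also has the most zeros, 18.

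Several members have a paralog in the table. Rpl3 was at 101 and 89.4 FPKM in PE+TSA+shJIP1, 129 and 123 in PE+TSA, with 111 and 131 in PE. Its paralog Rpl3l, known in mouse and human from adult heart and skeletal muscle, was listed at 0 in all 4 libraries with TSA, while PE had 0.0743 and 1.546 FPKM. Rpl3l was thus near 0 in these neonatal cultures, and its only value above 1 was in PE replicate 2. Rpl22 was at 123 and 152 FPKM in PE+TSA+shJIP1, 117 and 113 in PE+TSA, with 101 and 77.4 in PE, and its paralog Rpl22l1 at 3.10 and 5.63 in PE+TSA+shJIP1, 7.71 and 7.53 in PE+TSA, with 8.75 and 4.86 in PE. The ratio of Rpl22l1 to Rpl22 was 0.0253 and 0.0371 in PE+TSA+shJIP1, 0.0660 and 0.0669 in PE+TSA, with 0.0867 and 0.0628 in PE, lowest in both hairpin libraries. Rps27l, the paralog of Rps27 that p53 is known to induce, was listed higher than Rps27 in every library. It was at 157 and 155 FPKM in PE+TSA+shJIP1, 244 and 204 in PE+TSA, with 243 and 198 in PE. Rps27 had 75.1 and 37.8 FPKM in PE+TSA+shJIP1, 57.5 and 42.2 in PE+TSA, with 52.9 and 162 in PE. Rpl36al exceeded Rpl36a by 4.02-fold to 14.2-fold in the 6 libraries. The X-linked Rps4x stayed at or below 1.23 FPKM, whereas Rps4y2, a related gene that RefSeq places on chromosome 4 of the rat, was at 6.08 to 28.1 FPKM. Named copies numbered 12 for Rps4x and 0 for Rps4y2, 7 for Rps27 and 0 for Rps27l, and 15 for Rpl36a and 4 for Rpl36al. Rpl3 and Rpl22, which were listed above their paralogs, had 6 each, against 0 for Rpl3l and 2 for Rpl22l1. The part of reads shared with copies in these differences was not tested.

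With TSA in the presence of PE (PE+TSA against PE), none of the 64 ribosomal protein listings passed the threshold, a limma adjusted p under 0.05 over the 10359 features tested, where 0.811% of all features passed. The change was above 0 for 42 of 64 listings, against 56.9% of all features. At an unadjusted p under 0.05 there were 5 of 64 (7.81%), against 18.7% of all features. Groups did not overlap for 21 listings, against 50.6% of all features. Of these, 15 were higher and 6 lower with TSA (23.4% and 9.38%), against 29.5% and 21.1% of all features. The median change was 0.17 on the log2(FPKM + 1) scale, a scale that understates the change of low genes, against 0.10 for all features. After quantile normalization the listings had 0.16 and all features -0.02. Without PE replicate 2 the medians were 0.06 and 0.003, and without PE replicate 1 they were 0.35 and 0.17.

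The largest differences with non-overlapping groups were in low listings. Rpl31, beside the exit tunnel of the large subunit, was at 6.15 and 6.29 FPKM in PE+TSA, against 1.07 and 0 in PE (log2 change 2.33 ± 0.47 SE, limma adjusted p = 0.0948). Rps12, of the small subunit, was at 8.39 and 8.47 FPKM in PE+TSA, against 2.996 and 0 in PE (2.24 ± 0.63, limma adjusted p = 0.154). Each was at 0 in PE replicate 2, and without PE replicate 1, which leaves that library alone in PE, Rps12 passed upward (limma adjusted p = 0.0271) and Rpl35a downward (0.0398). Rps18, at the head of the small subunit, had 1.10 and 3.44 FPKM in PE+TSA, against 0 in both PE libraries. Rps4y2 was at 28.1 and 22.5 FPKM in PE+TSA, against 13.7 and 9.59 in PE (1.06 ± 0.36, limma adjusted p = 0.198), and Rpl26 at 11.3 and 8.61 in PE+TSA, against 8.27 and 1.91 in PE. Among the lower ones were Rpl12, at the base of the stalk, with 3.505 and 2.84 FPKM in PE+TSA, against 9.22 and 6.73 in PE (-1.10 ± 0.54, limma adjusted p = 0.335), and Rps29, with 14.6 and 16.1 in PE+TSA, against 29.0 and 30.1 in PE. Rpl30, Rpl23a and Rpl19, also without overlap, had differences of -0.56 ± 0.35, -0.31 ± 0.31 and -0.23 ± 0.19 (SE), with limma adjusted p of 0.426, 0.614 and 0.558. Rps19bp1 was at 120.5 and 154 FPKM in PE+TSA, against 92.2 and 69.5 in PE (0.76 ± 0.25, limma adjusted p = 0.191).

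With the hairpin against JIP1 added to PE and TSA (PE+TSA+shJIP1 against PE+TSA), again none of the 64 listings passed in limma, where 0.29% of all features passed, 0.183% upward and 0.106% downward. The change was above 0 for 37 of 64 listings, against 49.7% of all features. At an unadjusted p under 0.05 there were 6 (9.38%), against 14.9% of all features. Groups did not overlap for 27 listings, against 50% of all features. Of these, 15 were higher and 12 lower with the hairpin (23.4% and 18.8%), against 24.9% and 25.1% of all features. The median change was 0.09, against -0.003 for all features.

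Rpl34, a large subunit protein, was at 165 and 190.1 FPKM in PE+TSA+shJIP1, against 74.3 and 74.1 in PE+TSA (log2 change 1.25 ± 0.23, unadjusted p = 0.00153, limma adjusted p = 0.104). Rpl23a, the docking site at the exit tunnel for factors that bind the nascent chain, was at 18.6 and 10.1 FPKM in PE+TSA+shJIP1, against 41.9 and 45.3 in PE+TSA (-1.60 ± 0.31, unadjusted p = 0.00188, limma adjusted p = 0.110). Both genes had hairpin libraries outside the range of the other 4 libraries. Rps4y2 was at 11.9 and 6.08 FPKM in PE+TSA+shJIP1, against 28.1 and 22.5 in PE+TSA (-1.45 ± 0.36, limma adjusted p = 0.159). Rpl30, which in mammals also binds selenocysteine elements, was at 9.32 and 15.7 in PE+TSA+shJIP1, against 5.56 and 3.41 in PE+TSA (1.29 ± 0.35, limma adjusted p = 0.185). Of the 3 groups PE+TSA was thus the highest for Rps4y2 and the lowest for Rpl30, without overlap. Rps12, Rpl41 and Rpl36al were higher by 0.68, 0.67 and 0.60, and Rps21, Rpl12 and Rps26 lower, with changes of -1.55, -1.004 and -0.88, all with non-overlapping groups. Of these, Rps21 was at 0 in both hairpin libraries, against 1.77 and 2.08 FPKM in PE+TSA.

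**Figure D4:**
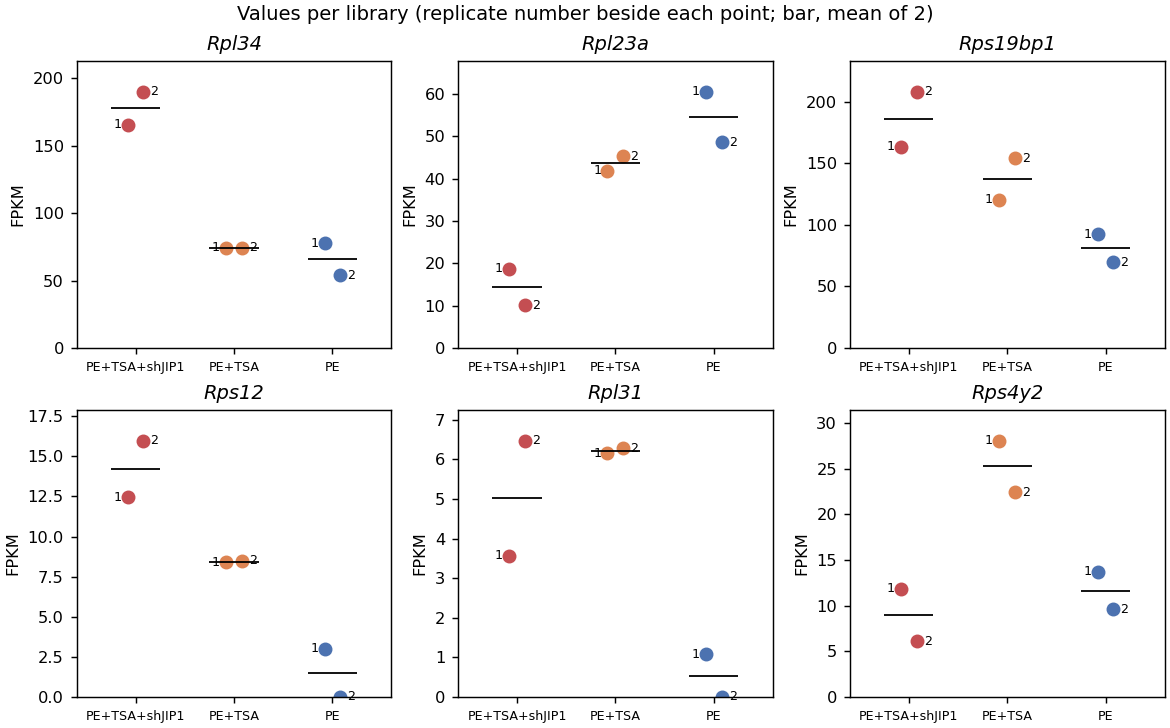
FPKM per library (vertical axes, from 0) of the 4 listings that passed between PE+TSA+shJIP1 and PE (Rpl34, Rpl23a, Rps19bp1, Rps12) and of Rpl31 and Rps4y2, with the replicate number beside each point and a bar at the mean of 2. Rpl34 is highest in both hairpin libraries (165 and 190.1) and Rpl23a lowest (18.6 and 10.1), while Rps4y2 is highest in PE+TSA (28.1 and 22.5).

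Between PE+TSA+shJIP1 and PE, 4 of 64 listings passed in limma: Rpl34, Rps19bp1 and Rps12 rose and Rpl23a fell. This is 6.25%, against 8.27% of all features. Upward it was 3 listings, against 4.11% of all features, and downward 1, against 4.16%. The change was above 0 for 38 of 64, against 55.4% of all features. Rpl34 was at 165 and 190.1 FPKM in PE+TSA+shJIP1, against 77.7 and 53.8 in PE (log2 change 1.44 ± 0.23, limma adjusted p = 0.0244). Rpl23a was at 18.6 and 10.1 FPKM in PE+TSA+shJIP1, against 60.5 and 48.6 in PE (-1.91 ± 0.31, limma adjusted p = 0.0248). Rps19bp1, also named AROS, which is known to bind the deacetylase SIRT1 and to act in assembly of the small subunit, was at 164 and 208 FPKM in PE+TSA+shJIP1, against 92.2 and 69.5 in PE (1.19 ± 0.25, limma adjusted p = 0.041). Rps12 was at 12.4 and 15.96 FPKM in PE+TSA+shJIP1, against 2.996 and 0 in PE (2.92 ± 0.63, limma adjusted p = 0.044). For Rps19bp1 and Rps12 the PE+TSA libraries lay between the other groups, for Rpl23a below PE and above the hairpin group, and for Rpl34 within the range of PE.

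These calls depended on the libraries and settings used. Without PE replicate 1, 7 of 64 listings passed (6 up, 1 down), of which 3 were among the 4, and 941 of all 10359 features. Without PE replicate 2 none passed: Rpl34 was then at 1.18 (limma adjusted p = 0.0852), Rpl23a at -2.06 (0.0874), Rps12 at 1.92 (0.0783) and Rps19bp1 at 0.99 (0.138). With no filter Rps12 (limma adjusted p = 0.0688) and Rps19bp1 (0.0552) missed the threshold, and with a pseudocount of 0.1 Rps12 did (0.0985). None of the 4 passed without PE+TSA+shJIP1 replicate 1 or 2, without PE+TSA replicate 1 or 2, or in a fit of these 2 groups alone. No sign of the 4 changes turned in any alternative that gave a value (13 for Rps12 and 14 for the other genes). The groups did not overlap for these 4 listings, so leaving out a library or changing the pseudocount or filter could not turn a sign.

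Groups did not overlap for 31 listings, against 60.6% of all features. Of these, 24 were higher and 7 lower in PE+TSA+shJIP1 than in PE (37.5% and 10.9%), against 33.9% and 26.7% of all features. The median change was 0.32, against 0.10 for all features, and 0.17 against 0.02 without PE replicate 2. Over the 35 listings with a mean of at least 50 FPKM the median was 0.35, with 26 positive and 9 negative. By subunit it was 0.35 over 37 large subunit listings and 0.16 over 24 small subunit ones. Rpl31 was at 3.57 and 6.47 FPKM in PE+TSA+shJIP1, against 1.07 and 0 in PE (limma adjusted p = 0.0526), and Rpl12 at 2.51 and 0.225 in PE+TSA+shJIP1, against 9.22 and 6.73 in PE (0.0629). Rpl27 was at 197 and 191 in PE+TSA+shJIP1, against 119.7 and 56.6 in PE (0.079), and Rps10, at the mRNA entry side of the small subunit, at 13.3 and 20.9 in PE+TSA+shJIP1, against 4.25 and 10.1 in PE (0.173). Rps27l, Rpl15 and Rpl19 were lower without overlap, with changes of -0.49, -0.39 and -0.38.

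**Figure D5:**
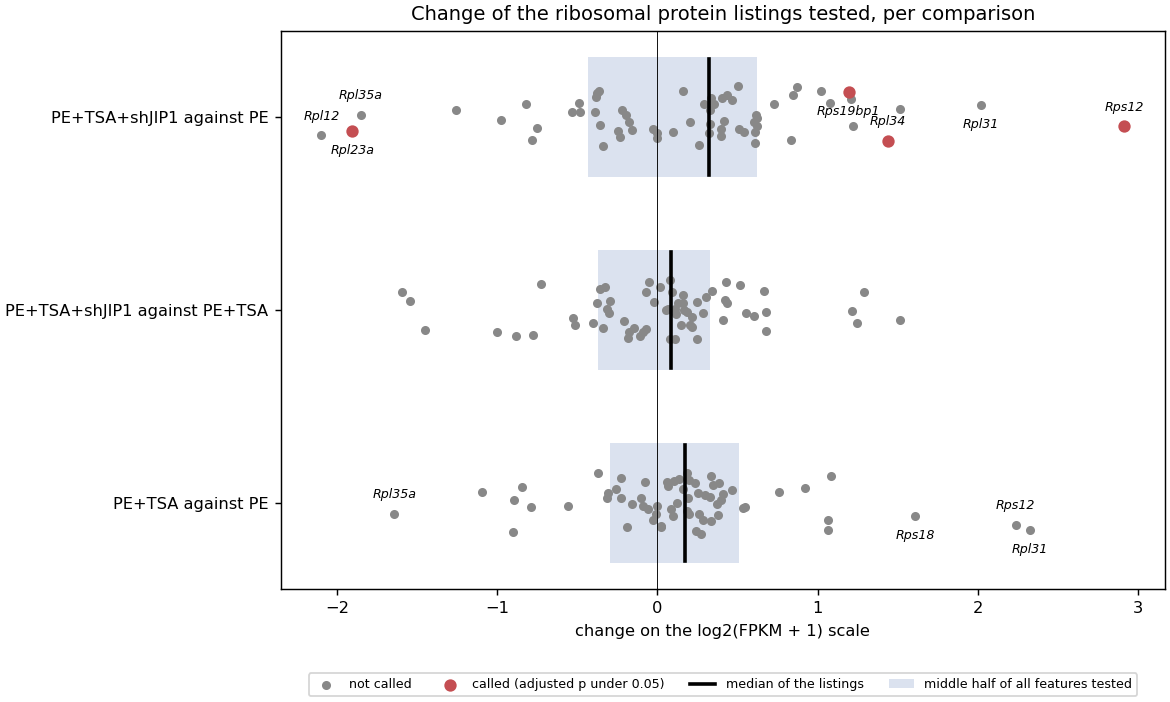
Change of each of the 64 listings tested (points, horizontal axis on the log2(FPKM + 1) scale) in the 3 comparisons, with the median of the listings as a black bar and the range between the quartiles of all features tested as a shaded band; red points passed the threshold. Only the row PE+TSA+shJIP1 against PE has red points (Rpl23a at -1.91, Rps19bp1 at 1.19, Rpl34 at 1.44 and Rps12 at 2.92), and the medians lie at 0.32, 0.09 and 0.17 from top to bottom.

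Some ribosomal protein genes lie outside the symbol rule. Fau, a ubiquitin-like fusion that yields a small subunit protein, was at 135 and 115 FPKM in PE+TSA+shJIP1, 92.6 and 102 in PE+TSA, with 44.1 and 70.4 in PE (PE+TSA+shJIP1 against PE 1.15 ± 0.27, limma adjusted p = 0.0515). Gnb2l1, the older symbol of the scaffold protein Rack1, was at 295 and 274 in PE+TSA+shJIP1, 303 and 254 in PE+TSA, with 216 and 207 in PE. For Fau both hairpin libraries were the highest and both PE libraries the lowest, but neither gene passed in any comparison.

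Other parts of the translation machinery were read from lists. Of 68 mitochondrial ribosomal protein listings 67 were tested. None passed with TSA or with the hairpin, and Mrpl38 fell between PE+TSA+shJIP1 and PE (19.5 and 18.0 FPKM in PE+TSA+shJIP1, against 57.7 and 56.6 in PE; limma adjusted p = 0.0174), 1 of 67 where 8.27% of all features passed. The medians of this list were -0.02, 0.08 and 0.08 in the comparisons PE+TSA against PE, PE+TSA+shJIP1 against PE+TSA, and PE+TSA+shJIP1 against PE. Of 63 ribosome biogenesis and nucleolus genes none passed with TSA or with the hairpin, with medians of 0.06 and 0.29, the second with 52 of 63 positive, against 49.7% of all features. Against PE, 3 of 63 passed, where 8.27% of all features did. Between PE+TSA+shJIP1 and PE, Imp3, of the small subunit processome, rose (45.9 and 47.8 FPKM in PE+TSA+shJIP1, against 17.4 and 20.4 in PE; limma adjusted p = 0.0275), as did the large subunit assembly factor Rpf1 (36.1 and 46.5 in PE+TSA+shJIP1, against 17.1 and 19.2 in PE; 0.0409), and Nop16 fell (11.2 and 10.2 in PE+TSA+shJIP1, against 34.1 and 22.3 in PE; 0.0398). None of the 15 RNA polymerase I genes and factors passed in any comparison. With TSA, with the hairpin and between PE+TSA+shJIP1 and PE, 0.811%, 0.29% and 8.27% of all features passed. The medians of the 15 were 0.05, 0.40 and 0.65 in that order, against 0.10, -0.003 and 0.10 for all features. Medians of the further lists are given in the same order.

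Of 23 listings of elongation factors and other TOP mRNAs none passed with TSA or with the hairpin. Between PE+TSA+shJIP1 and PE 2 of 23 passed, where 8.27% of all features did: the muscle and neuron elongation factor Eef1a2 fell (62.9 and 40.04 FPKM in PE+TSA+shJIP1, against 221 and 203 in PE; limma adjusted p = 0.0273), as did the intermediate filament gene Vim (208 and 198 in PE+TSA+shJIP1, against 433 and 475 in PE; 0.026). Eef1a1, the form of that factor in most cells, was at 99.5 and 68.4 FPKM in PE+TSA+shJIP1 and 87.0 and 79.1 in PE. The list's medians were 0.004, 0.13 and 0.05. Of 36 initiation factor genes and their binding proteins, Eif4ebp1 alone passed with the hairpin, where 0.29% of all features passed. Eif4ebp1, Eif1 and Eif4g2 fell between PE+TSA+shJIP1 and PE, 3 of 36 against 8.27% of all features (medians -0.02, 0.14 and 0.15). Eif1, which takes part in start codon choice, was at 28.9 and 25.3 FPKM in PE+TSA+shJIP1, against 67.7 and 68.4 in PE (limma adjusted p = 0.0194), and Eif4g2 at 10.7 and 12.1 in PE+TSA+shJIP1, against 32.6 and 28.2 in PE (0.027). Eif4ebp1, the repressor of cap-dependent initiation that mTORC1 phosphorylates, was at 44.9 and 45.8 FPKM in PE+TSA+shJIP1, 153 and 144 in PE+TSA, with 219 and 231 in PE (hairpin against PE+TSA -1.69 ± 0.18, limma adjusted p = 0.0339; against PE -2.29 ± 0.18, 0.0103). The 3 groups did not overlap. In the mTORC1 list of 24, Rps6ka3, an Rps6k kinase, also fell between PE+TSA+shJIP1 and PE. It was at 21.3 and 18.5 FPKM in PE+TSA+shJIP1, against 45.1 and 40.9 in PE (limma adjusted p = 0.0333). The other Rps6k kinases of the list, Rps6ka1, Rps6kb1 and Rps6kb2, did not pass (limma adjusted p of 0.725, 0.543 and 0.763). Whether mTORC1 acts on Rps6ka3 was not examined. Pdcd4, an inhibitor of the initiation helicase, rose (108 and 109.5 FPKM in PE+TSA+shJIP1, against 32.3 and 18.6 in PE; 0.0174). Of this list 3 of 24 passed between PE+TSA+shJIP1 and PE, Eif4ebp1 among them, where 8.27% of all features did. With the hairpin Eif4ebp1 was its only call, where 0.29% of all features passed. The medians of the mTORC1 list were 0.27, -0.05 and 0.23. The housekeeping list of 10 tested listings had no call, with medians of -0.23, -0.05 and -0.24. No set test was run on any list, and the third comparison shares its libraries with the other two.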

How the data were processed

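RNA sequencing values of 6 libraries were used. The authors deposited 1 table of FPKM values with 13843 features and no unit in its header. Per the submitters' processing notes, Cufflinks and rn6 were used, without a version. Aligner, annotation, read filters and strand were not given in the sources used here. Depth is unknown. Its ratio to PE replicate 1 was read from features below 0.3 FPKM there, with values up to 1, 5, 10 or 25 times that limit in the other library; these windows were chosen after seeing the data, and the ratio depended on them.

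Features averaging 1 FPKM or more over the libraries (10359) entered a limma 3.58.1 fit (R 4.3.3) of log2(FPKM + 1) on the 3 groups, with a trended prior and 3 residual and 3.27 prior degrees of freedom. Two-sided p-values were adjusted within a comparison (Benjamini-Hochberg), with a threshold of 0.05. Fold changes are on that scale. The fit was tested on simulated data with planted changes of known size, drawn with the spread of these data. The share recovered is not reported here. Alternatives were another pseudocount, 2 other filters, 2 scalings, 2 groups only, the replicate number in the fit, features without zeros, and each library left out.

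The members, lists and tests were chosen with earlier results of these data known. Named were members that passed, members at 0 in a library and above 5 FPKM in another, the 8 highest and lowest, the 5 largest non-overlapping rises and falls, and paralogs; of the other lists, members that passed among the 3 with the smallest p, besides genes chosen after their values were seen (Fau, Gnb2l1, Eef1a1, Gapdh, Ppia, Rpl5 and Rpl27a). Promoter windows and gene names are from RefSeq (GRCr8), a build other than that of the values, so they were matched by symbol only. Values of a few genes are not reported here.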

Additional observations from a re-analysis of the deposited data

How the results depend on the processing

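The median change of the listings kept its sign in all 14 alternatives of each comparison. Its size varied, from 0.06 to 0.35 with TSA, 0.02 to 0.18 with the hairpin and 0.16 to 0.44 between PE+TSA+shJIP1 and PE. The SD between replicates of a library's median was 0.178. It came largely from the PE libraries (medians of 6.24 and 5.84), so it cannot judge the moves seen when 1 of these was left out. Followed over all alternatives were 31 changes (listings that passed, and the 5 largest non-overlapping rises and falls), and none turned its sign. All 31 had non-overlapping groups. Leaving out a library or changing the pseudocount or filter therefore could not turn them, and these alternatives say nothing about their stability. Over all 64 listings, leaving out PE replicate 2 turned the sign of 17 changes with TSA, that of Rps25 (-0.16 with all libraries, 0.50 without it) and of Rpl37a (0.10 and -0.18) among them. With the hairpin, 16 changes turned without PE+TSA+shJIP1 replicate 2 and 14 without PE+TSA replicate 2. The counts of features called depended on the setting, and the cause was not tested. With TSA 84 features were called, 14 with no filter, 5 with 2 groups only and 28 with the replicate block; leaving out 1 library gave 6 to 203, and 0 to 2 ribosomal protein listings, against 0 with all libraries. With the hairpin 30 were called, 1 with no filter, 46 with median scaling, 8 with 2 groups only, 18 with the replicate block and 62 without features listed at 0 in any library; leaving out 1 library gave 7 to 16. Between PE+TSA+shJIP1 and PE 857 were called, 4 with 2 groups only and 4 to 941 without 1 library; the ribosomal protein listings called, 4, were 2 with no filter, 0 with 2 groups only and 0 to 7 without 1 library. Where a group was left with 1 library, that library was assumed to vary like the other groups. Whether the replicate numbers pair the libraries is not known. The deviations of same-numbered libraries correlated at 0.12, 0.04 and 0.07 between groups, which cannot decide it. With the replicate block 5 listings passed between PE+TSA+shJIP1 and PE (1063 features), 3 of them among the 4 named (Rpl34, Rpl23a and Rps19bp1), with Rpl12 and Rps10 besides, while Rps12 missed the threshold (limma adjusted p = 0.0505). Depth is unknown, and no limit for the smallest change these libraries could show is given here.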
